A study of Mus musculus with 6 samples.

Results

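The osteoclast and cell fusion genes described here are 10 mouse genes that macrophage precursors use to become osteoclasts or to merge into multinucleated cells. They were found in the deposited count table by gene symbol, and all 10 were among its 55487 genes. The 10 genes and the lists set beside them were chosen with earlier results of these data known. Their shares of called genes are therefore not those of a blind choice. They lie on 10 different chromosomes. The macrophages came from 2 kinds of cells sorted from mouse bone marrow, which the labels call TpMos and mature Ly6Chi monocytes, and were grown for 7 days in medium with CSF-1, the factor that maintains macrophages. The TpMo-derived group and the Ly6Chi-derived group hold 3 libraries each, named here TpMo 1 to 3 and Ly6Chi 1 to 3. The sources used here give no strain, age, sex or genotype of the mice, no expansion of the name TpMo and no CSF-1 concentration for each sample, and both groups carry the same label for treatment (not applicable). RANKL, the ligand that drives osteoclast formation, is not named in the culture medium. Whether the libraries of a group stem from different animals or cultures is not stated, and the p-values therefore speak only of the variation among these 6 libraries, which may be technical.

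Osteoclasts are the bone-resorbing cells of the macrophage lineage. RANKL binds its receptor RANK (Tnfrsf11a) on precursors kept alive by CSF-1, and together with co-receptors that signal through ITAM adaptors it switches on NFATc1, the transcription factor that directs the osteoclast programme. Its targets include the membrane proteins that let precursors fuse (Dcstamp, Ocstamp, the proton pump subunit Atp6v0d2), the adhesion receptor chain Itgb3, the secreted phosphatase Acp5 and the calcitonin receptor Calcr. Macrophages outside bone can also fuse, into giant cells, with some of the same membrane proteins.

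The libraries held 23765773 to 33042094 counts on genes, and a gene read at 0 could still have a level of up to 3 counts, which equals 0.0908 to 0.126 CPM (counts scaled to a fixed library total). This limit covers counting error only and takes each count as independent. Both mates of a pair were counted separately, so a gene above the limit can also be read at 0. All 8 macrophage markers examined, among them the CSF-1 receptor Csf1r at 3017 ± 63.2 CPM in TpMo-derived and 2119 ± 47.9 CPM in Ly6Chi-derived macrophages (mean ± SD, n = 3), passed the filter on low counts. Of 10 stromal and osteoblast markers 8 were at 0 in every library, as were 5 of 7 dendritic cell, 7 of 8 lymphoid and erythroid, and 4 of 5 mast cell and basophil markers. Across the 13140 genes tested, 1620 differed between the groups (adjusted p under 0.05, edgeR's quasi-likelihood test with Benjamini-Hochberg adjustment over all of them), 859 higher and 761 lower in TpMo-derived macrophages. Scaling by library size alone turned that split to 737 higher and 902 lower.

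TpMo-derived macrophages held more transcript of the receptor gene Tnfrsf11a, by 1.91-fold, and less of Atp6v0d2 (2.91-fold lower), Tm4sf19 (3.05-fold lower), Itgb3 (4.32-fold lower) and Nfatc1 (1.35-fold lower) than Ly6Chi-derived macrophages. Acp5 and Dcstamp did not pass the test. Calcr, Ocstamp and Oscar had too few counts to be tested. Of the 7 genes tested, 1 was thus higher, against 6.54% of all genes tested, and 4 were lower, against 5.79%. The lower count fell to 3 or 2 on leaving out any 1 library, being 2 without TpMo 3, Ly6Chi 1 or Ly6Chi 2, since Nfatc1 lost its call in each case and Itgb3 in these 3. In either direction 12.3% of all genes tested were called. The median log2 fold change of the 7 was -0.43, beside 0.01 over all genes tested. In 6 of the 7 the ranges of both groups did not overlap, as was the case for 30.5% of all genes tested. Summed over all 10 genes, the TpMo-derived libraries held 227.1 to 303.5 CPM and the Ly6Chi-derived libraries 457.4 to 556.5 CPM, with Atp6v0d2 the largest contributor in every library. In bulk RNA, fewer cells that express a gene and less RNA of it per cell cannot be told apart.

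**Figure D1:**
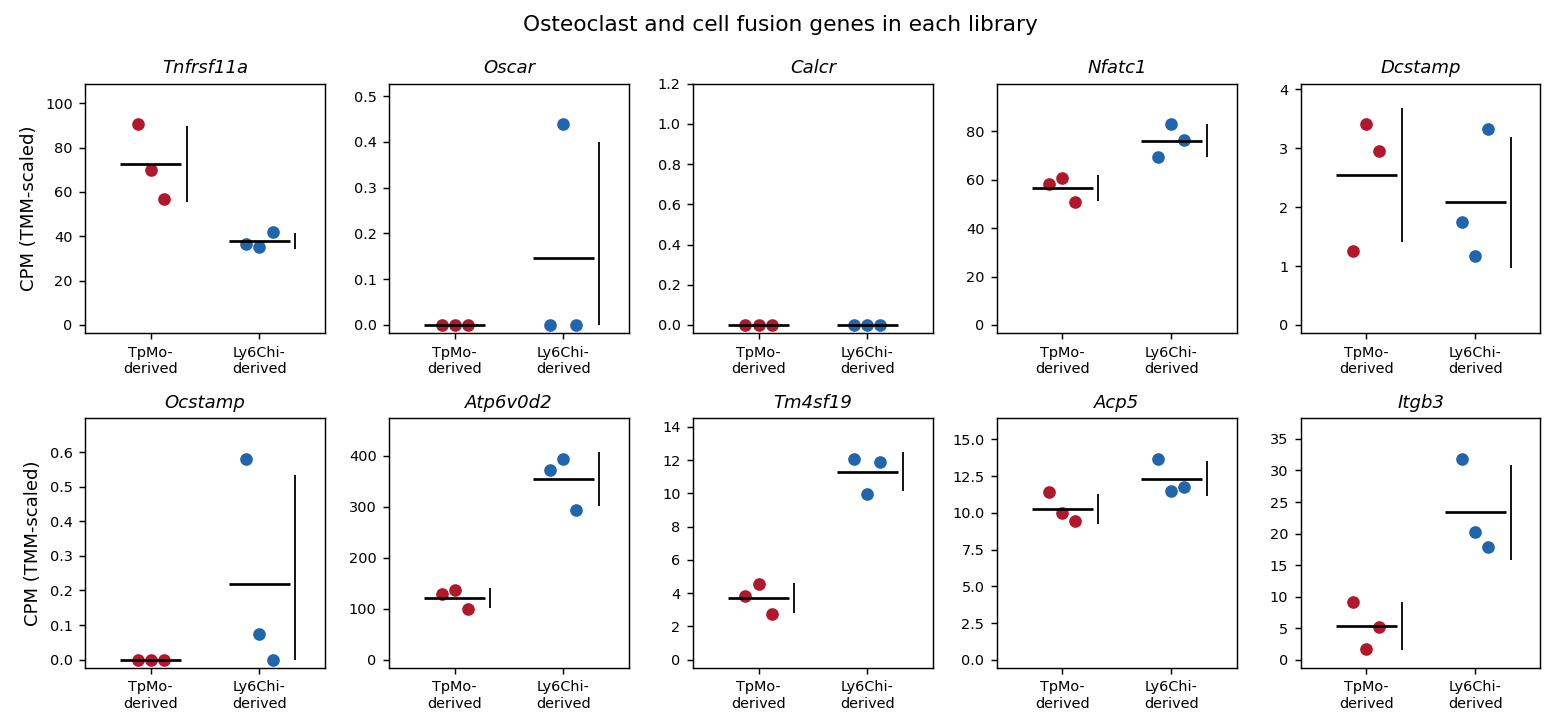
Level of each of the 10 genes in CPM on TMM-scaled library totals (y axis, a separate scale for each gene, from 0) in the 3 TpMo-derived (red) and 3 Ly6Chi-derived libraries (blue). Points are libraries, the horizontal bar is the mean and the thin vertical line is the mean ± SD, drawn from 0 where it would fall below. The TpMo-derived points of Tnfrsf11a lie above all Ly6Chi-derived points, those of Atp6v0d2, Tm4sf19, Itgb3, Nfatc1 and Acp5 lie below, those of Dcstamp overlap, and Oscar, Calcr and Ocstamp lie at or near 0.

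**Figure D2:**
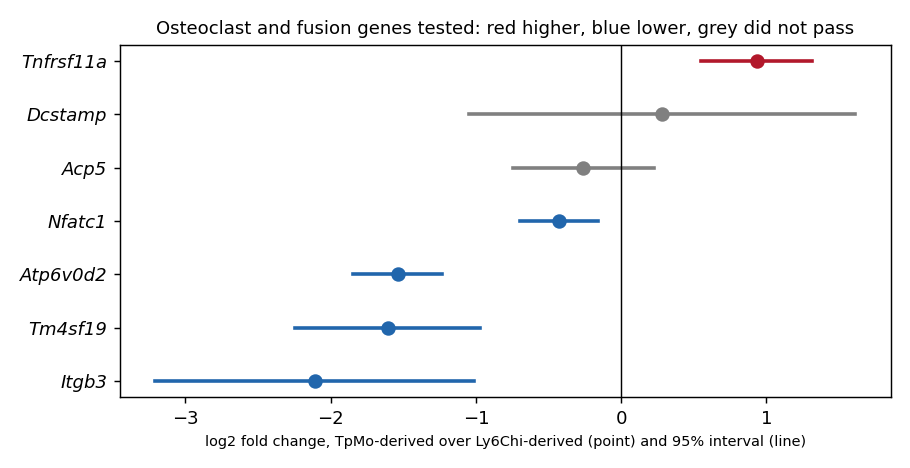
Log2 fold change of TpMo-derived over Ly6Chi-derived macrophages for the 7 genes tested (x axis), as the edgeR estimate (point) with its 95% interval (line). Red is higher, blue is lower (adjusted p under 0.05) and grey did not pass. Estimates run from -2.11 for Itgb3 to 0.93 for Tnfrsf11a, and only the intervals of Dcstamp and Acp5 include 0.

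The promoter sequences of 3 of these genes are shown because they represent a gene that was higher, a gene that was lower and a gene near 0. RefSeq promoter windows (GRCm38.p6) were at hand for 5 of the 10 genes, with 8 windows in all. The 250 bases before the annotated start are given 5′ to 3′ on the gene's strand, in lower case, with capitals for matches on either strand to any of 6 short motifs: GGAAA (the NFAT core), TGANTCA (AP-1), GAGGAA (the PU.1 core), the E-boxes CACGTG and CATGTG bound by MITF, and GGGNNNNNCC (a loose NF-kB pattern). A GAGGAA followed by A also holds GGAAA.
Tnfrsf11a, chr1:105780473-105780722, plus strand: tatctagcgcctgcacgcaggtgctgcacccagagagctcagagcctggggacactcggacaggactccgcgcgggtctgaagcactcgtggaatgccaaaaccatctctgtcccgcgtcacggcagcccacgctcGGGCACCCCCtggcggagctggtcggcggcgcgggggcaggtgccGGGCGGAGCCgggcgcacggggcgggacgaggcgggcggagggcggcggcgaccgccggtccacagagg
Tm4sf19, chr16:32400256-32400505, plus strand: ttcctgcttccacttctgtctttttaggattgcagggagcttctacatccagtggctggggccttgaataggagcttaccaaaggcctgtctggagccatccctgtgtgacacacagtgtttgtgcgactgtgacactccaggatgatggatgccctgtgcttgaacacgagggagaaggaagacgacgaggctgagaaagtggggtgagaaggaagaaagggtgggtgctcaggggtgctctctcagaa
Oscar, chr7:3616158-3616407, minus strand: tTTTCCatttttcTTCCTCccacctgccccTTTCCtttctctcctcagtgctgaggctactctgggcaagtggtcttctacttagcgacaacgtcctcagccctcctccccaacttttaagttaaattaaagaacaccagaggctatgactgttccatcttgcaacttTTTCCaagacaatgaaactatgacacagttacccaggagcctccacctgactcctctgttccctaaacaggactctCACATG
The Tnfrsf11a window was 73.6% G and C and held 2 matches, both of the loose NF-kB pattern, beginning 114 and 69 bases before the start. The Tm4sf19 window (53.6% G and C) held none of the 6 motifs. The Oscar window (47.2% G and C) held 3 NFAT core matches at 249, 220 and 82 bases before the start, 1 PU.1 core match at 237 and 1 CATGTG at 6, all of them on the opposite strand, so that they read as the reverse complement here. Of 32851 mouse windows of this length, 55.6% held GGAAA, 45.8% GGGNNNNNCC, 23.3% GAGGAA, 12.3% CATGTG, 6.75% TGANTCA and 6.02% CACGTG. A match is a string of letters and no evidence of binding.

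Among the receptors, Tnfrsf11a (ENSMUSG00000026321.7, chromosome 1, 105780718 to 105847981, plus strand, GRCm38) encodes RANK. Its level was 90.7, 69.7 and 56.9 CPM in TpMo 1, 2 and 3, and 36.5, 35.4 and 42.1 CPM in Ly6Chi 1, 2 and 3. Every TpMo-derived library was above every Ly6Chi-derived one, and the TpMo-derived libraries spread more widely (72.4 ± 17.1 against 38.0 ± 3.58 CPM, mean ± SD, n = 3 each). The log2 fold change was 0.93 ± 0.17 (SE, adjusted p = 0.00627, edgeR). The call held under all 12 other settings, which gave log2 fold changes of 0.74 to 1.08.

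Oscar (ENSMUSG00000054594.13, chromosome 7, 3609813 to 3616157, minus strand) encodes a collagen-binding receptor that signals through the Fc receptor gamma chain. It had 0 counts in 5 libraries and 12 counts in Ly6Chi 2, or 0.439 CPM. Calcr (ENSMUSG00000023964.15, chromosome 6, 3685680 to 3764714, minus strand), the calcitonin receptor of mature osteoclasts, had 0 counts in all 6 libraries. The limit for such a gene, with counts taken as independent, is 0.0908 to 0.126 CPM. No difference in Oscar was detectable at this depth (adjusted p = 0.351 with no filter on low counts, edgeR). The ligand gene Tnfsf11 (RANKL) and its decoy receptor gene Tnfrsf11b (osteoprotegerin) were also at 0 in all 6 libraries.

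Downstream of RANK, 26 of 27 genes listed for RANK signalling were tested, and 5 were higher and 1 lower in TpMo-derived macrophages (median log2 fold change 0.20), or 23.1% called beside 12.3% of all genes tested. Junb and Fos, which form AP-1 dimers, rose by 0.50 ± 0.07 and 1.03 ± 0.18 on the log2 scale (adjusted p = 0.00197 and 0.00494, edgeR). Fos stood at 216.6, 294.8 and 287.5 CPM in the TpMo-derived and at 97.6, 167.8 and 125.5 CPM in the Ly6Chi-derived libraries, without overlap. Relb and Nfkb2, the noncanonical NF-kB pair that RANK can activate, rose by 1.33 ± 0.27 and 0.70 ± 0.15 (adjusted p = 0.0105 and 0.0125). The Relb call was lost without Ly6Chi 1 or 2 (adjusted p up to 0.0597, edgeR), and that of Nfkb2 without TpMo 1, Ly6Chi 1 or Ly6Chi 3 (up to 0.0560). Ppp3ca, a catalytic subunit of calcineurin, the phosphatase that activates NFAT proteins, was lower by a log2 fold change of -0.45 ± 0.12 (adjusted p = 0.0322, edgeR), a call lost without any single library other than TpMo 3 (up to 0.116). Traf6, the adaptor that binds RANK, had a log2 fold change of -0.46 ± 0.15 and did not pass (adjusted p = 0.0877), though it did by DESeq2 (0.0360) and without TpMo 2 (0.0332).

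Of 15 ITAM co-receptor, adaptor and kinase genes tested, 1 was lower and none higher (median log2 fold change 0.05), or 6.67% called beside 12.3% of all genes tested. The lower one, Tec, a kinase that acts beside Btk, averaged 89.3 ± 8.95 CPM in the TpMo-derived group and 135.2 ± 13.1 CPM in the Ly6Chi-derived group (log2 fold change -0.60 ± 0.11, adjusted p = 0.00599, edgeR). Both adaptors that couple osteoclast co-receptors to Syk, Tyrobp (DAP12) and Fcer1g (the Fc receptor gamma chain), did not pass, with log2 fold changes of 0.08 ± 0.11 and 0.24 ± 0.10 (adjusted p = 0.732 and 0.185, edgeR). Tyrobp spanned 158.3 to 191.8 CPM among the TpMo-derived libraries and 141.9 to 185.9 CPM among the others, overlapping ranges.

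Nfatc1 (ENSMUSG00000033016.16, chromosome 18, 80606205 to 80713071, minus strand), the transcription factor that commits precursors to the osteoclast fate, was measured at 58.4, 60.7 and 50.7 CPM in TpMo 1, 2 and 3 and at 69.3, 83.2 and 76.3 CPM in Ly6Chi 1, 2 and 3. All Ly6Chi-derived libraries were above all TpMo-derived ones. The log2 fold change was -0.43 ± 0.12 (adjusted p = 0.0443, edgeR). This call sat close to the threshold: it held under the 6 settings that kept all libraries and was lost on leaving out any 1 of the 6 (log2 fold change -0.50 to -0.36, adjusted p 0.0540 to 0.164).

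Nfatc2, the relative of Nfatc1 best known from T cells, moved the other way. It was at 48.1, 56.2 and 53.3 CPM in TpMo-derived and at 22.4, 29.6 and 31.9 CPM in Ly6Chi-derived libraries, with no overlap and a log2 fold change of 0.91 ± 0.16 (adjusted p = 0.00528, edgeR). Nfatc3 (0.04 ± 0.29) and Nfat5 (-0.15 ± 0.20) did not pass, and Nfatc4 was at 0 in all 6 libraries. Counted per base of exon, Nfatc1 made up 54.8, 52.7 and 51.4% of the NFAT family in TpMo 1, 2 and 3 and 70.8, 70.0 and 67.9% in Ly6Chi 1, 2 and 3. The share was lower by 16.6 percentage points in TpMo-derived macrophages (exact two-sided permutation test, p = 0.1, the smallest that 3 against 3 libraries allow), and the direction was the same on leaving out each library.

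Of the 4 fusion genes among the 10, Atp6v0d2 (ENSMUSG00000028238.6, chromosome 4, 19876841 to 19922605, minus strand) had the highest level per base of exon. It encodes the d2 subunit of the membrane sector of the V-ATPase, the proton pump, and in mice it is needed for osteoclast precursors to fuse. Its level was 128.8, 137.0 and 99.2 CPM in TpMo 1, 2 and 3 and 373.0, 394.6 and 294.2 CPM in Ly6Chi 1, 2 and 3. TpMo 3 and Ly6Chi 3 were the lowest of their groups, and the highest TpMo-derived value stayed below the lowest Ly6Chi-derived one. The log2 fold change was -1.54 ± 0.14 (adjusted p = 8.70e-05, edgeR), and the call held under all 12 other settings.

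The pump's other genes had smaller log2 fold changes. Of 17 further V-ATPase subunit genes tested, 4 were lower and 2 higher (median log2 fold change -0.18), or 35.3% called beside 12.3% of all genes tested. Scaling by library size alone gave 6 lower and 0 higher. The 4 lower ones were Atp6v1c1 (-0.54 ± 0.06), Atp6v1d (-0.55 ± 0.09), Atp6v1a (-0.29 ± 0.05) and Atp6v0d1 (-0.36 ± 0.07), with adjusted p between 0.000458 and 0.0100 (edgeR). The 2 higher ones, Atp6v1b2 (0.21 ± 0.05) and Atp6v1h (0.26 ± 0.07), passed at 0.0323 and 0.0452. Both lost the call when scaled by library size alone (0.116 and 0.109, edgeR). Atp6v1b2 also lost it without any 1 library other than TpMo 3 (up to 0.148), and Atp6v1h without any 1 of the 6 (up to 0.170) and with no filter (0.0642). Atp6v0d1, the d1 subunit that most cells use in place of d2, was at 150.8 ± 6.46 CPM in TpMo-derived and 193.8 ± 2.44 CPM in Ly6Chi-derived libraries. Per base of exon, d2 was 35.1, 38.5 and 30.4% of d1 plus d2 in TpMo 1, 2 and 3 and 55.7, 57.3 and 50.4% in Ly6Chi 1, 2 and 3. The ranges did not overlap, and d2 was the more abundant of the pair in every Ly6Chi-derived and in no TpMo-derived library. The difference was -19.8 percentage points (exact two-sided permutation test, p = 0.1, the smallest possible).

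**Figure D3:**
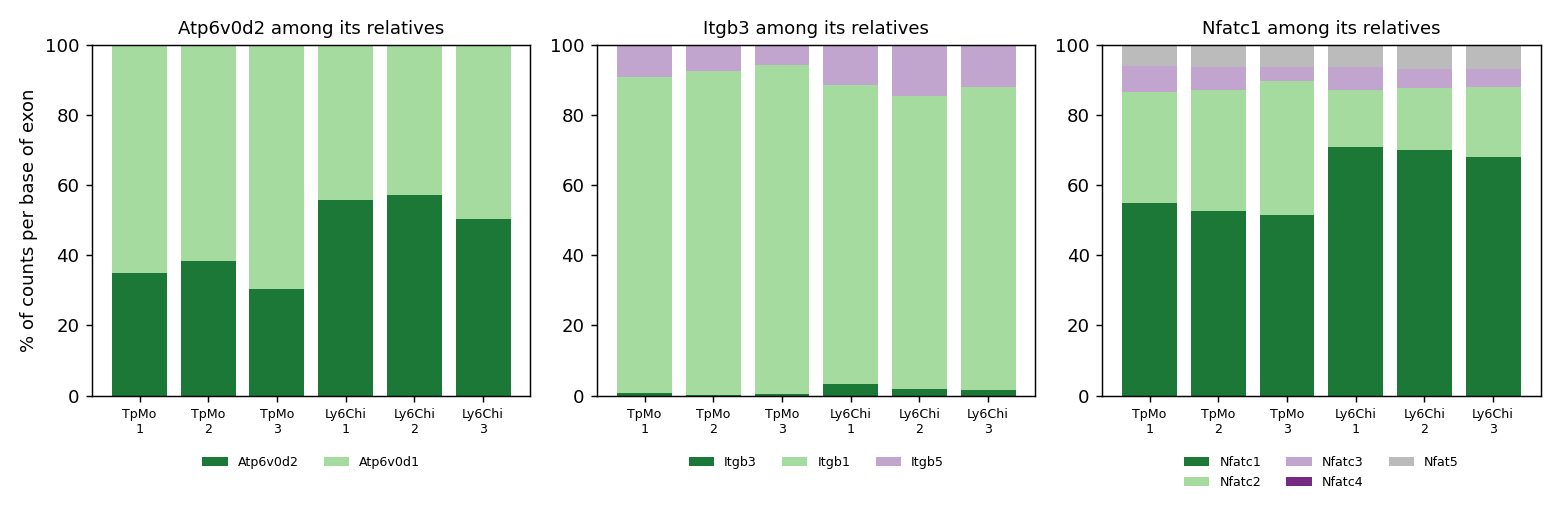
Share of each relative in the summed counts per base of exon (y axis, %) in each of the 6 libraries (x axis), for Atp6v0d2 with Atp6v0d1, Itgb3 with Itgb1 and Itgb5, and Nfatc1 with Nfatc2, Nfatc3, Nfatc4 and Nfat5. The darkest green segment at the base of each bar is the named gene. Atp6v0d2 takes 30.4 to 38.5% of its pair in the TpMo-derived libraries and 50.4 to 57.3% in the others, Nfatc1 51.4 to 54.8% and 67.9 to 70.8%, and Itgb3 at most 3.43%.

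Tm4sf19 (ENSMUSG00000079625.2, chromosome 16, 32400506 to 32408227, plus strand) encodes a membrane protein with 4 spans of the L6 family, linked to multinucleation of osteoclasts in mice. It was at 3.81, 4.53 and 2.78 CPM in TpMo 1, 2 and 3, from 64 to 124 counts, and at 12.1, 9.96 and 11.9 CPM in Ly6Chi 1, 2 and 3. The groups did not overlap, the log2 fold change was -1.61 ± 0.29 (adjusted p = 0.00505, edgeR), and the call held under all 12 other settings (-1.78 to -1.44). Its relatives Tm4sf1, Tm4sf4 and Tm4sf20 were at 0 in all 6 libraries. Tm4sf5 had 0, 0 and 41 counts in TpMo 1, 2 and 3 and 34, 33 and 13 counts in Ly6Chi 1, 2 and 3, and did not pass (log2 fold change -0.69 ± 1.58, adjusted p = 0.855, edgeR).

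Dcstamp (ENSMUSG00000022303.9, chromosome 15, 39745930 to 39760938, plus strand) and Ocstamp (ENSMUSG00000027670.4, chromosome 2, 165393760 to 165400405, minus strand) encode related multi-span proteins, both required for osteoclast fusion in mice. Dcstamp was read at 1.26, 3.42 and 2.95 CPM in TpMo 1, 2 and 3 and at 1.74, 1.17 and 3.33 CPM in Ly6Chi 1, 2 and 3. The groups overlapped, with coefficients of variation of 44.7% and 53.7%. Its log2 fold change of 0.28 ± 0.60 did not pass (adjusted p = 0.841, edgeR). The 95% interval of -1.05 to 1.61 leaves room for a difference in either direction, and the estimate changed sign without Ly6Chi 2 (-0.013). Ocstamp had 0 counts in the 3 TpMo-derived libraries and 16, 2 and 0 counts in Ly6Chi 1, 2 and 3, or at most 0.581 CPM. Only Ly6Chi 1 exceeded the limit of 3 counts, and no difference was detectable at this depth (adjusted p = 0.276 with no filter on low counts, edgeR).

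Of 24 other genes of the fusion machinery tested, 3 were higher, 1 was lower and 20 did not pass (median log2 fold change -0.09). These 16.7% called stand beside 12.3% of all genes tested, and scaling by library size alone gave 3 higher and 2 lower. Cd47 and Sirpa, a ligand and its inhibitory receptor that also take part in macrophage fusion, were both higher. Cd47 averaged 469.4 ± 29.3 CPM in the TpMo-derived group and 280.3 ± 5.81 CPM in the other (log2 fold change 0.74 ± 0.07, adjusted p = 8.70e-05, edgeR), and Sirpa 3008 ± 81.5 and 2204 ± 93.5 CPM (0.45 ± 0.05, adjusted p = 0.000299, edgeR). The metalloprotease gene Adam8 rose by 0.26 ± 0.06 (adjusted p = 0.0268, edgeR), a call lost without TpMo 3 or any 1 Ly6Chi library (up to 0.119). The tetraspanin gene Cd9, whose protein restrains macrophage fusion in mice, had a log2 fold change of -0.33 ± 0.10 (adjusted p = 0.0493, edgeR), a call lost without any 1 library other than TpMo 2 (up to 0.160).

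Acp5 (ENSMUSG00000001348.15, chromosome 9, 22126727 to 22135711, minus strand) encodes tartrate-resistant acid phosphatase, the enzyme stained to identify osteoclasts. It was at 11.4, 9.99 and 9.42 CPM in TpMo 1, 2 and 3 and at 13.7, 11.5 and 11.8 CPM in Ly6Chi 1, 2 and 3. The groups did not overlap, but the nearest libraries, TpMo 1 and Ly6Chi 2, were almost level. The log2 fold change of -0.26 ± 0.22 did not pass (adjusted p = 0.548, 95% interval -0.75 to 0.23, edgeR). Of its exon bases 6.75% also lie on an antisense gene, 6530413G14Rik, and reads that fell on both were not counted. The lysosomal relative Acp2 was higher in TpMo-derived macrophages (316.4 ± 20.5 against 207.3 ± 12.3 CPM, log2 fold change 0.61 ± 0.08, adjusted p = 0.000739, edgeR).

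Among 19 tested genes of the bone resorption machinery, 2 were higher and 1 lower (median log2 fold change -0.15), or 15.8% called beside 12.3% of all genes tested, and scaling by library size alone gave 2 higher and 2 lower. Mmp9, a gelatinase gene that osteoclasts express strongly, lies on chromosome 2 (164940780 to 164955850). It stood at 48.1, 24.7 and 58.2 CPM in TpMo 1, 2 and 3 and at 0, 0.732 and 0 CPM in Ly6Chi 1, 2 and 3. Its log2 fold change was 7.52 ± 0.81 (adjusted p = 0.000239, edgeR), a value that rests on Ly6Chi 2, the only library of its group with any Mmp9 counts; without it the group was at 0 and the fitted value (13.3) depended on the prior count. Mmp14, a membrane-bound protease gene, rose by 1.51 ± 0.29 (adjusted p = 0.00764, edgeR). Ostm1, the partner of the chloride transporter ClC-7 at the resorbing membrane, fell by 0.57 ± 0.11 on the log2 scale (adjusted p = 0.00714, edgeR). Ctsk, the main collagen-degrading protease of osteoclasts, was at 5.86, 7.24 and 8.29 CPM in TpMo-derived and 16.4, 8.60 and 10.3 CPM in Ly6Chi-derived libraries, and its log2 fold change of -0.72 ± 0.30 did not pass (adjusted p = 0.169, edgeR). The carbonic anhydrase gene Car2, which supplies protons to the pump in osteoclasts, was at 0 in all 6 libraries.

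Itgb3 (ENSMUSG00000020689.4, chromosome 11, 104608000 to 104670476, plus strand) encodes the β3 chain of the αvβ3 integrin, through which osteoclasts grip bone. It was at 9.21, 1.71 and 5.21 CPM in TpMo 1, 2 and 3 and at 31.9, 20.3 and 17.8 CPM in Ly6Chi 1, 2 and 3. Both groups were spread widely, TpMo 2 lowest and Ly6Chi 1 highest, but did not overlap. The log2 fold change was -2.11 ± 0.49 (adjusted p = 0.0199, edgeR). It kept its direction under all 12 other settings, from -2.77 without TpMo 1 to -1.69 without TpMo 2, but the call was lost without TpMo 3 (adjusted p = 0.0860, edgeR), Ly6Chi 1 (0.0933) or Ly6Chi 2 (0.0530) and with no filter on low counts (0.0877).

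The chains that pair with or replace β3 were at higher levels per base of exon: Itgav, Itgb1 and Itgb5 averaged 44.7, 614.8 and 50.1 TPM (counts per base of exon, scaled to the same total in every library) in TpMo-derived macrophages, where Itgb3 averaged 3.01 TPM. Itgav, the αv partner, was at 110.8, 142.1 and 183.6 CPM in TpMo-derived and 178.2, 213.6 and 186.2 CPM in Ly6Chi-derived libraries and did not pass (log2 fold change -0.41 ± 0.16, adjusted p = 0.141, edgeR), though it did without TpMo 3 (0.0286). Itgb5 had a log2 fold change of -0.48 ± 0.18 and did not pass (adjusted p = 0.117, edgeR), though it did with no filter on low counts (0.0488). Itgb1 was higher in TpMo-derived macrophages, at 758.1 ± 16.8 against 576.5 ± 30.6 CPM (0.39 ± 0.06, adjusted p = 0.00199, edgeR). Per base of exon, Itgb3 made up 0.769, 0.141 and 0.450% of Itgb1, Itgb3 and Itgb5 together in TpMo 1, 2 and 3 and 3.43, 2.04 and 1.75% in Ly6Chi 1, 2 and 3, again without overlap (difference -1.95 percentage points, exact two-sided permutation test, p = 0.1, the smallest possible).

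Of 13 tested partners and effectors of β3 integrin, 3 were higher and 1 lower (median log2 fold change -0.15), or 30.8% called beside 12.3% of all genes tested. The higher ones were Itgb1 and 2 activators of integrins, Fermt3 (0.33 ± 0.06, adjusted p = 0.00398, edgeR) and Tln1 (0.25 ± 0.05, adjusted p = 0.0120, edgeR), the latter losing its call without TpMo 3 or Ly6Chi 2 (up to 0.0757). The lower one was Spp1, which encodes osteopontin, a bone matrix ligand of αvβ3. It was at 8870, 11140 and 9417 CPM in TpMo 1, 2 and 3 and at 14269, 16885 and 14966 CPM in Ly6Chi 1, 2 and 3 (log2 fold change -0.65 ± 0.09, adjusted p = 0.000877, edgeR).

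Of 17 tested genes that restrain osteoclast formation, 5 were higher, 3 were lower and 9 did not pass (median log2 fold change -0.01). These are 29.4% higher and 17.6% lower, beside 6.54% and 5.79% of all genes tested. The phosphatase gene Ptpn6 (0.73 ± 0.07), the transcription factor gene Irf8 (0.37 ± 0.07), whose loss in mice leads to excess osteoclasts, and Rbpj (0.51 ± 0.10), the nuclear effector of Notch, were higher, with adjusted p of 0.000104, 0.00502 and 0.00795 (edgeR). Tnfaip3, a brake on NF-kB, rose by 0.78 ± 0.16 (adjusted p = 0.0107, edgeR), a call lost without TpMo 3, Ly6Chi 1 or Ly6Chi 3 (up to 0.0575). Id2, an inhibitor of helix-loop-helix factors, averaged 284.8 ± 56.2 CPM in the TpMo-derived group and 507.7 ± 42.0 CPM in the other (-0.83 ± 0.12, adjusted p = 0.00183, edgeR). Def6 was lower as well (-0.85 ± 0.18, adjusted p = 0.0136, edgeR), a call lost without TpMo 1 or Ly6Chi 1 (up to 0.0638).

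**Figure D4:**
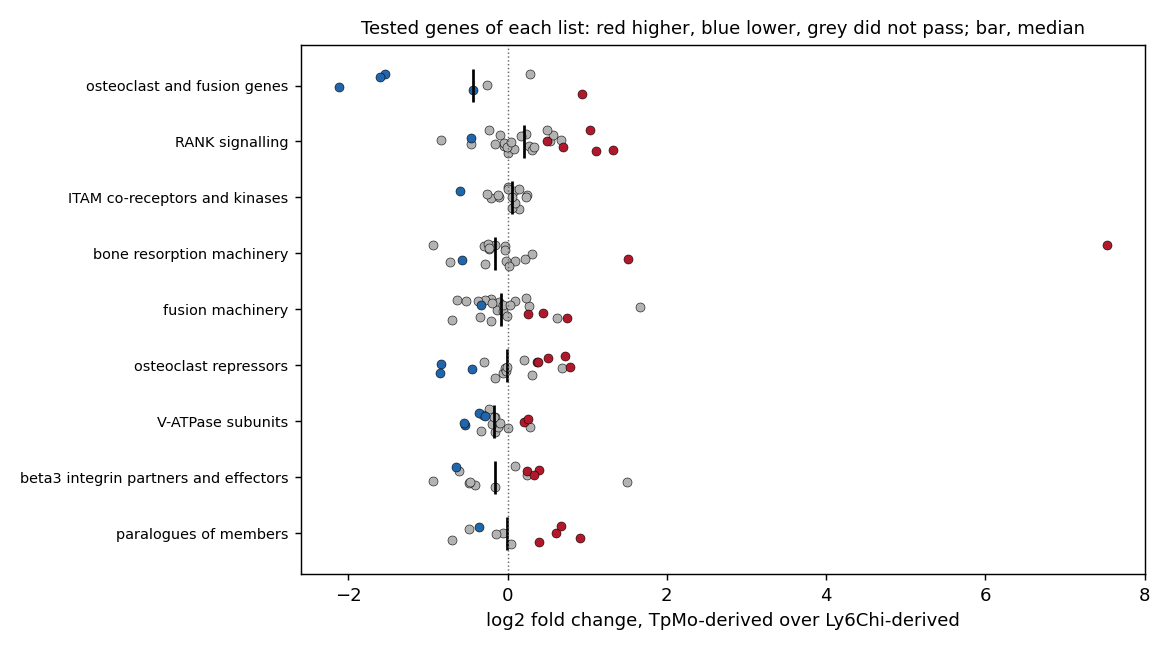
Log2 fold change of TpMo-derived over Ly6Chi-derived macrophages (x axis) of every tested gene in each list other than the cell type markers (rows, points spread vertically for legibility). Red is higher, blue is lower and grey did not pass, and the black bar is the median. The median of the osteoclast and fusion genes lies at -0.43 and those of the pathway and relative lists drawn beside it between -0.18 and 0.20, and the point at 7.52 is Mmp9.

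To compare genes with one another, counts were divided by exon length and scaled to the same total in every library (TPM). In Ly6Chi-derived macrophages Atp6v0d2 led at 451.8 ± 72.0 TPM (SD, n = 3). Nfatc1 (35.3 ± 2.60) and Tm4sf19 (31.2 ± 3.65) came next with overlapping libraries, then Tnfrsf11a (21.96 ± 1.86) and Acp5 (21.0 ± 2.57), which also overlapped, Itgb3 (13.8 ± 4.78) and Dcstamp (2.70 ± 1.41). In TpMo-derived macrophages Atp6v0d2 again led, at 148.5 ± 26.5 TPM, but Tnfrsf11a was in the second place at 40.1 ± 9.92, above Nfatc1 (25.1 ± 2.73), Acp5 (16.8 ± 1.88) and Tm4sf19 (9.78 ± 2.46) with no overlap between neighbours. Dcstamp (3.15 ± 1.41 TPM) and Itgb3 (3.01 ± 2.12 TPM) shared the lowest place among the tested genes, and their libraries overlapped. Oscar and Ocstamp averaged 0.272 and 0.211 TPM in Ly6Chi-derived macrophages and 0 in TpMo-derived ones.

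The replicates of these genes varied unevenly. The median coefficient of variation of the 7 tested genes was 23.6% in TpMo-derived and 10.4% in Ly6Chi-derived libraries, beside 17.7% and 15.9% for all genes tested.

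Of the markers of other cell types, only Mmp8 and Runx2 were called, both lower in TpMo-derived macrophages. Of 8 neutrophil markers, 1 was testable and Mpo was at 0 in every library. The untested ones went in both directions. Ltf had 0, 58 and 38 counts in TpMo 1, 2 and 3 and 4, 0 and 0 counts in Ly6Chi 1, 2 and 3. Ngp averaged 0.426 CPM in TpMo-derived and 0.206 CPM in Ly6Chi-derived libraries, and S100a8 0.177 and 0.416 CPM. S100a9 and Camp had 2 counts each, in TpMo 3 and TpMo 1, and Elane 8 counts in Ly6Chi 3. The summed level of the list was 29.6 to 36.3 CPM in the TpMo-derived libraries and 58.4 to 64.2 CPM in the others, nearly all of it Mmp8, a collagenase gene (log2 fold change -0.94 ± 0.14, adjusted p = 0.00150, edgeR). The stromal and osteoblast list summed to 0.868 to 2.23 CPM and 5.97 to 8.82 CPM, and only Runx2, a transcription factor of osteoblasts, was testable (-2.20 ± 0.42, adjusted p = 0.00759, edgeR), with the collagen genes Col1a1 and Col1a2 at 0 in every library. The mast cell and basophil list summed to 0 to 1.93 CPM and 1.76 to 4.21 CPM, all of it Gata2, which did not pass. The dendritic cell list summed to 0.184 to 0.781 CPM and 0.403 to 0.763 CPM, and the lymphoid and erythroid list to at most 0.174 CPM in any library. Of the 8 macrophage markers tested 4 were higher (50%) and 1 was lower (12.5%), beside 6.54% and 5.79% of all genes tested. Csf1r was among the higher ones (0.51 ± 0.05, adjusted p = 8.33e-05, edgeR). The lower one was Itgam (-0.31 ± 0.08, adjusted p = 0.0382, edgeR), a call lost without any 1 library other than TpMo 3 (up to 0.115). The 8 markers summed to 35270 to 37790 CPM in the TpMo-derived libraries and 28910 to 31960 CPM in the others. The part of these differences in the results for the osteoclast and fusion genes was not tested.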

How the data were processed

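RNA sequencing (SMART-seq v2, paired-end) was done on 6 libraries in 2 groups of 3. The authors deposited raw counts per gene. Per the file headers, featureCounts 1.6.3 counted reads on exons of GENCODE M22 with default options, so both mates of a pair count separately, strand is ignored, and reads that map to several places or genes are left out. STAR and GRCm38 are named per the submitters' processing notes, without a version of STAR in the sources used here. The exon lengths are the authors' deposited values per gene.

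GENCODE M21, also on GRCm38, gave symbols for 55394 of 55487 genes. The test was edgeR 4.0.16 (R 4.3.3): filterByExpr defaults (minimum count 10, minimum total 15), TMM scaling, robust quasi-likelihood fit with no covariate, and Benjamini-Hochberg adjustment over 13140 genes with a threshold of 0.05. The SE is the size of the log2 fold change divided by the square root of F. CPM are on TMM-scaled totals. Replicates were numbered in accession order and the labels give no batch. The procedure was checked on simulated counts. It recovered 48 of 92 genes given a log2 fold change of size 1 and 82 of 101 given size 2. Of 12445 genes simulated without a change it called 10. A gene that did not pass can therefore still differ. Alternatives included DESeq2 1.42.0 and limma-voom (limma 3.58.1). Promoters are from RefSeq.

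The 10 genes and the pathway and marker lists were chosen with earlier results of these data known. Named list genes are a fixed set plus up to 4 changed genes per direction with the smallest p in each list. One result of these lists is not reported here.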

Additional observations from a re-analysis of the deposited data

How the results depend on the processing

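The tested genes were recomputed under 12 other settings. DESeq2 size factors, library sizes alone, a 1 CPM minimum in 3 libraries, DESeq2's Wald test and limma-voom left the call count of the osteoclast and fusion genes at 1 higher and 4 lower, and with no filter on low counts it was 1 higher and 3 lower. On leaving out each library in turn it was 1 higher and 2 to 3 lower, the 2 without TpMo 3, Ly6Chi 1 or Ly6Chi 2. Over all genes these fits called 976 (without Ly6Chi 2) to 1492, among them 1074 without TpMo 3, 1058 without Ly6Chi 1 and 1062 without Ly6Chi 3, with 531 to 750 higher and 445 to 742 lower, and fewer samples were fitted. The share differences per base of exon, on leaving out each library, stayed between -21.9 and -17.7 points for Atp6v0d2. They stayed between -2.28 and -1.44 points for Itgb3 and between -17.5 and -15.9 points for Nfatc1. Estimates near 0 changed sign: Nfatc3 with library sizes alone (-0.0043) and on leaving out a library (-0.12 to 0.28), Tyrobp (-0.025 to 0.17) and Dcstamp (-0.013 to 0.79) on leaving out a library. The cause was not tested. No paired analysis was possible because the labels give no replicate numbers. Depth limits Calcr, Oscar and Ocstamp, which lie at or near 0.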

Other observations

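The genes next to these 10 on the chromosome were looked at after the results were seen. For each gene the nearest tested gene on either side was taken, 20 in all, of which 3 were higher and 1 lower in TpMo-derived macrophages and 16 did not pass. Of all genes tested 12.3% were called. Slc13a3, a dicarboxylate transporter gene on the same strand as Ocstamp and 4622 bases from it, stood at 93.5 ± 36.9 CPM in TpMo-derived and 0.484 ± 0.544 CPM in Ly6Chi-derived libraries (mean ± SD, n = 3, adjusted p = 3.42e-05, edgeR), while Ocstamp itself had 0 counts in every TpMo-derived library. Slc13a3 (165405028 to 165473230) and Mmp9 (164940780 to 164955850), both higher, lie on chromosome 2 with Ocstamp between them. Whether their differences are linked was not tested. Wwp1, a ubiquitin ligase gene 167847 bases from Atp6v0d2, was higher (log2 fold change 0.95 ± 0.09, adjusted p = 9.38e-05, edgeR) where Atp6v0d2 was lower, and Ctdp1, 136509 bases from Nfatc1, was higher as well (0.73 ± 0.21, adjusted p = 0.0499, edgeR). Gm20056, which begins 308 bases beyond the end of Tm4sf19 on the same strand, was lower together with it (-1.37 ± 0.38, adjusted p = 0.0412, edgeR). The calls of Ctdp1 and Gm20056 lie close to the threshold. Wwp1, Ctdp1 and Gm20056 were not followed under the other settings. Reads that run past the annotated end of Tm4sf19 into Gm20056 could not be told apart from reads of a separate transcript in these counts.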
